A study of Mus musculus with 67 samples.

Results

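Microglia that had been sorted after an enzymatic digest of the brain were compared with microglial RNA that had been pulled down on tagged ribosomes from frozen brain. The comparison set 4 libraries of sorted cells against 3 libraries of the pull-down, and it covered every gene that passed a count filter, 11529 of the 24411 genes in the table. All mice were C57BL/6J with the genotype CX3CR1CreER/WT RLP22HA/HA, which means that a tamoxifen-inducible Cre recombinase sits in 1 copy of Cx3cr1 and that both copies of Rpl22 can be switched to a form with an HA tag (RiboTag). Tamoxifen, 5 mg in oil, had been given by gavage 4 times, every other day, between 4 and 6 weeks of age. The age at which tissue was taken is not given in the sources used here. No LPS or PBS injection is labelled for these groups. The design text says that replicates were individual mice, and that sorting and pull-down used the same animal.

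For the sorted cells, chopped brain was kept for 20 min at 37 °C with Collagenase D at 1 mg/ml and DNase1 at 50 µg/ml, passed over Percoll and sorted as GR1 negative, CD45 intermediate and CD11b positive. For the pull-down, brain was frozen at once, homogenised with cycloheximide, cleared by centrifugation and incubated for 4 h at 4 °C with 125 µg of anti-HA antibody. Another 4 libraries came from cells sorted without the digest, and 4 from pull-downs with mouse IgG1 in place of anti-HA. The IgG1 amount is labelled as 1 µg against 125 µg of anti-HA, so the IgG libraries are not a control of equal antibody amount. The groups therefore differed at once in handling, in which cells could contribute and in whether RNA had to be on a tagged ribosome, and in this comparison these differences cannot be told apart. In bulk libraries, moreover, fewer cells of a type and less RNA per cell cannot be told apart.

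Microglia are the resident macrophages of the brain parenchyma. They carry Cx3cr1, which perivascular, meningeal and choroid plexus macrophages (border macrophages) also carry, so Cre activity in this line reaches both. Immediate early genes are switched on within minutes of a stimulus by factors that are already in the cell, and many of their mRNAs are unstable. The question addressed was how the microglial expression profile read from sorted cells differs from that read from ribosomes of intact tissue.

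Library totals were 898098 to 1402952 counts for the sorted cells and 1425819 to 1714523 for the pull-down, and were 1079977 to 1252076 without digest and 685218 to 1843618 for IgG. Replicate libraries within the sorted and pull-down groups differed by more than sampling noise, with chi-square per degree of freedom of 1.53 to 3.16 in every pair. Values below are CPM, the read count scaled to library size after TMM normalisation, and log2 fold changes are sorted after digest minus pull-down, ± SE. Genes were called at an adjusted p under 0.05 in edgeR's quasi-likelihood test with Benjamini-Hochberg adjustment over all 11529 genes.

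Of the 11529 genes, 8391 (72.8%) were called, 3647 (31.6%) higher and 4744 (41.1%) lower in the sorted cells. The lean towards lower calls depended on the processing, with 4162 higher and 4248 lower when libraries were scaled by their totals and 3691 higher and 3938 lower when only the groups compared were fitted. Changes of more than 2-fold were called for 2521 genes (21.9%) in the higher direction and for 3371 (29.2%) in the lower. The median log2 fold change of all tested genes was -0.18, with quartiles of -1.34 and 0.84. The libraries of both groups did not overlap for 8339 genes (72.3%). These shares are the background for every list below, and a list that splits like them does not stand out.

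The genes with the largest difference towards sorted cells were Nfkbiz, Kcnq1ot1, Zfp729b, Zfp984, Tnf, Xist, Klf4, Hist1h1d, Sirt1, Zfp738, Zfp654 and Trp53inp1. Of these 12, 8 (Kcnq1ot1, Zfp729b, Zfp984, Hist1h1d, Sirt1, Zfp738, Zfp654 and Trp53inp1) had no read in any pull-down library, which puts them at least 25-fold higher (Trp53inp1) to at least 42.5-fold higher (Kcnq1ot1) in sorted cells when the pull-down group as a whole is set to 3 reads. Kcnq1ot1 is transcribed antisense to Kcnq1, and since the strand setting of the counts is not given here the pair cannot be told apart. The largest differences towards the pull-down were those of Mmp17, Cx3cl1, Dbn1, Syt7, Mmp9, Syn2, Ndn, Adcy1, Cend1, Adgrb1, Kcnmb4 and Scg2. All but Cend1 had 0 reads in the 4 sorted libraries, from at least 169-fold lower (Scg2) to at least 419-fold lower (Mmp17).

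**Figure D1:**
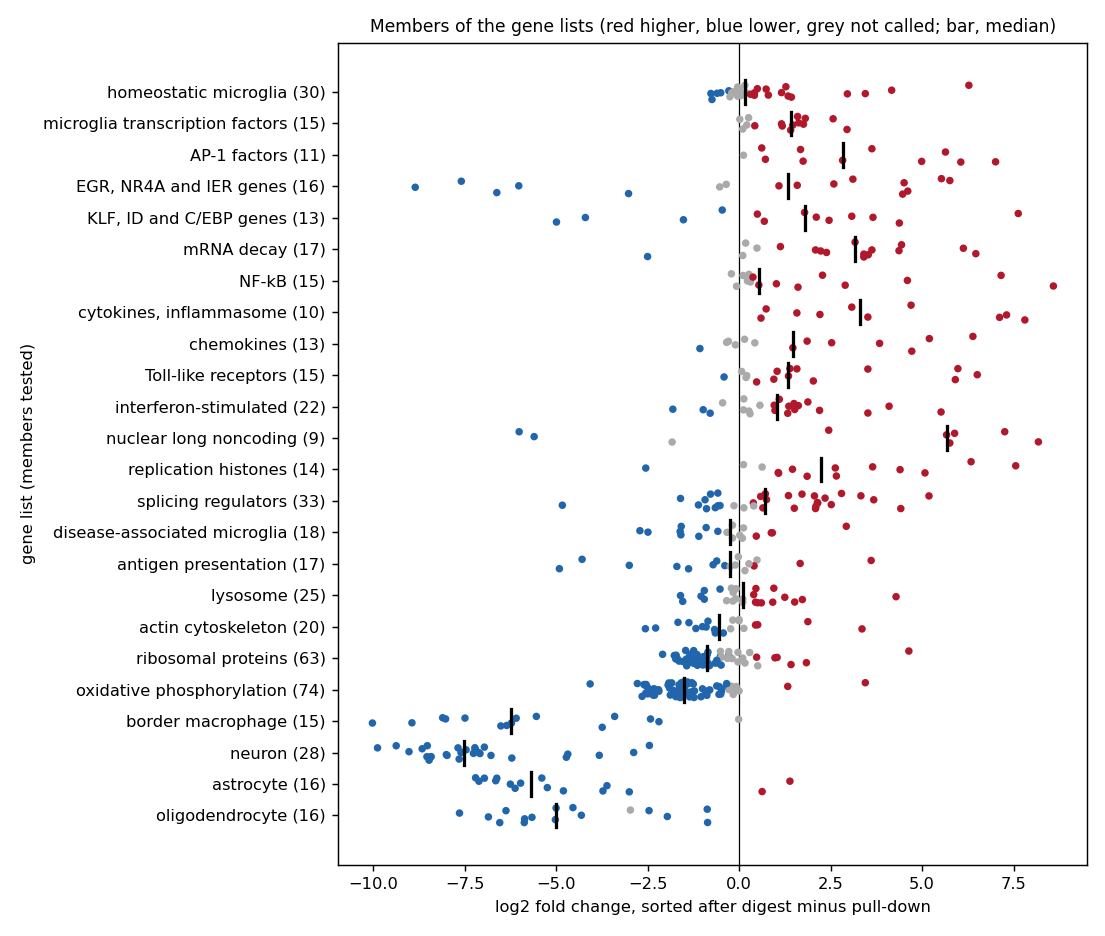
Log2 fold change (sorted after digest minus pull-down, x axis) of every tested member of 24 gene lists (y axis, number tested in brackets); red and blue points were called higher and lower, grey points were not called, and the black bar is the median. The lists range from a median of 5.67 for nuclear long noncoding RNAs to -7.53 for neuronal genes.

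Both preparations carried microglial RNA at a like summed level. Homeostatic microglia genes, those that mark microglia in healthy brain, summed to 116000 to 130000 CPM in sorted cells and 111000 to 123000 CPM in the pull-down, against 4070 to 6690 CPM with IgG. All 30 were higher in the anti-HA than in the IgG pull-down, a contrast in which 3078 of all tested genes (26.7%) were called higher and 5516 (47.8%) lower. Between sorted cells and pull-down, 14 of the 30 were higher and 5 lower, with a median of 0.17.

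Tmem119, a membrane protein that marks microglia, stood at 3990, 3680, 3640 and 3800 CPM in sorted cells and 3610, 3710 and 3550 CPM in the pull-down. The groups overlapped, and the difference was 0.06 ± 0.12 (adjusted p = 0.664). Trem2, a lipid-sensing receptor, was not called either, at -0.04 ± 0.12 (adjusted p = 0.785). Csf1r, the receptor for the survival factor CSF1, was higher by 0.50 ± 0.13. C1qa, a chain of complement C1q, differed by -0.60 and Aif1, which encodes IBA1, by -0.77, both called lower and without overlap between the groups.

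A few receptors of the same list differed far more. P2ry12, the ADP receptor of process-bearing microglia, had 3440, 3610, 4360 and 3730 CPM in sorted cells but 204, 246 and 179 CPM in the pull-down. No library of one group came near the other, and the difference was 4.17 ± 0.16 (adjusted p = 3.73e-24). Gpr34, a lysophosphatidylserine receptor, had 903, 925, 765 and 822 CPM against 9.1, 15.6 and 7.66 CPM, a difference of 6.28 ± 0.22. P2ry13, a relative of P2ry12, was higher by 3.45 ± 0.15 and the phagocytic receptor kinase Mertk by 2.96 ± 0.36. All 4 were also higher in the anti-HA than in the IgG pull-down, by 4.49 for P2ry12, 3.09 for Gpr34, 4.47 for P2ry13 and 2.40 for Mertk.

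Cx3cr1 differed by 1.43 ± 0.14, but 1 of its copies holds the Cre in every mouse here. Itgam (CD11b) and Ptprc (CD45) served as the gate, so their differences of -0.39 ± 0.12 and 2.57 ± 0.15 are no finding. Rpl22, the gene of the tagged protein, stood at 177, 144 and 183 CPM in the pull-down and 52.9 to 74.3 CPM in sorted cells.

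Transcription factors of microglial identity were higher in sorted cells in 11 of 15 cases and lower in none, with a median of 1.41. Maf went from 36.4 to 53.5 CPM in the pull-down to 251 to 291 CPM in sorted cells (2.57 ± 0.18). Runx1 and Sall1 were higher by 1.81 ± 0.16 and 1.41 ± 0.15. Cebpa, Smad3, Spi1 and Irf5 were not called, with values from 0.02 to 0.26, though Spi1 and Irf5 were called at 0.39 and 0.43 when libraries were scaled by their totals.

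Among immediate early genes, the AP-1 factors were mostly higher in the sorted cells, while the EGR, NR4A and IER genes split. Of 11 AP-1 factors tested, 10 were higher and none lower, with a median of 2.83. Fos, a partner in the AP-1 dimer, was 3090, 2770, 2070 and 2300 CPM in sorted cells and 24.3, 17.4 and 17.9 CPM in the pull-down. Every sorted library lay far above every pull-down library, and the difference was 7.01 ± 0.22 (adjusted p = 2.71e-24). Jun, the usual partner of Fos in that dimer, was at 4100, 3840, 4180 and 3750 CPM against 84.2, 72.8 and 82.3 CPM, with no overlap (5.64 ± 0.18). Fosb, Junb and Jund were higher by 6.06 ± 0.54, 3.63 ± 0.15 and 2.83 ± 0.16. Between the anti-HA and IgG pull-downs, 3 of the 11 AP-1 factors were called higher and 3 lower. Fos was lower there, by -1.48 ± 0.23 with an IgG mean of 55.4 CPM, so its pull-down level lay below that control. Jun and Junb were not called in that contrast (-0.15 and 0.18).

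Of 16 EGR, NR4A, IER and related genes, 9 were higher and 5 lower. Egr1, a zinc finger factor induced through serum response factor, was at 3950, 3610, 3840 and 3660 CPM in sorted cells and 101, 72.2 and 71.5 CPM in the pull-down, without overlap (5.53 ± 0.18). Egr2, Ier2, Ier3, Ier5 and Gem were higher by 4.51, 4.47, 4.61, 3.11 and 5.76. Nr4a2, Nr4a3, Egr4, Npas4 and Arc went the other way, and Egr3 and Srf were not called. The call of Nr4a2 was lost without pull-down replicate 2 (-2.26, edgeR adjusted p = 0.0619). Egr4, Npas4 and Arc had 37.3 to 51.6, 13.6 to 23.6 and 51.6 to 88.7 CPM in the pull-down and at most 1.07 CPM in any sorted library. Npas4 and Arc are activity-dependent genes of neurons, and all 3 stood higher still in the IgG libraries, at 103 to 176 CPM for Egr4, 88.9 to 135 CPM for Npas4 and 224 to 454 CPM for Arc. Of the 16 genes, 2 were higher and 12 lower in anti-HA than in IgG. Egr1 was among those lower, at -1.58 ± 0.16 with an IgG mean of 242 CPM.

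Among phosphatases that switch off MAP kinases, 4 of 12 were higher and 4 lower. Dusp1, the induced phosphatase of p38 and JNK, was at 1470, 1710, 1680 and 1550 CPM against 18.2, 35.5 and 37.7 CPM, with no overlap (5.70 ± 0.36). In IgG it averaged 73.6 CPM, and the anti-HA minus IgG difference was -1.29 ± 0.35. Of the 12 phosphatase genes, 2 were higher and 6 lower in anti-HA than in IgG. In sorted cells against the pull-down, 9 of 13 KLF, ID and C/EBP genes were higher and 4 lower. Klf4 and Klf2, factors that restrain inflammatory transcription in myeloid cells, were higher by 7.63 ± 0.54 and 4.38 ± 0.36. Id3 and Klf9 were lower, by -4.99 ± 0.37 and -4.20 ± 0.23, and were at 77.3 and 357 CPM on average in IgG. Klf4 and Klf2 were not called between the anti-HA and IgG pull-downs, where 4 of the 13 genes were higher and 7 lower.

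Regulators of mRNA decay were higher in 13 of 17 cases and lower in 1 (Noct), with a median of 3.17. Zfp36 encodes tristetraprolin, which binds AU-rich elements and recruits deadenylases. It was at 3520, 3140, 2780 and 3200 CPM in sorted cells and 41.7, 30.5 and 35.1 CPM in the pull-down, well apart (6.47 ± 0.18). Its relatives Zfp36l1 and Zfp36l2 were higher by 3.63 and 3.53, the deadenylase partners Btg1 and Btg2 by 4.37 and 4.44, and the endonuclease Zc3h12a by 2.39. Of the 17 genes, 7 were higher and 6 lower in anti-HA than in IgG, with Zfp36 higher by 2.61 ± 0.25.

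**Figure D2:**
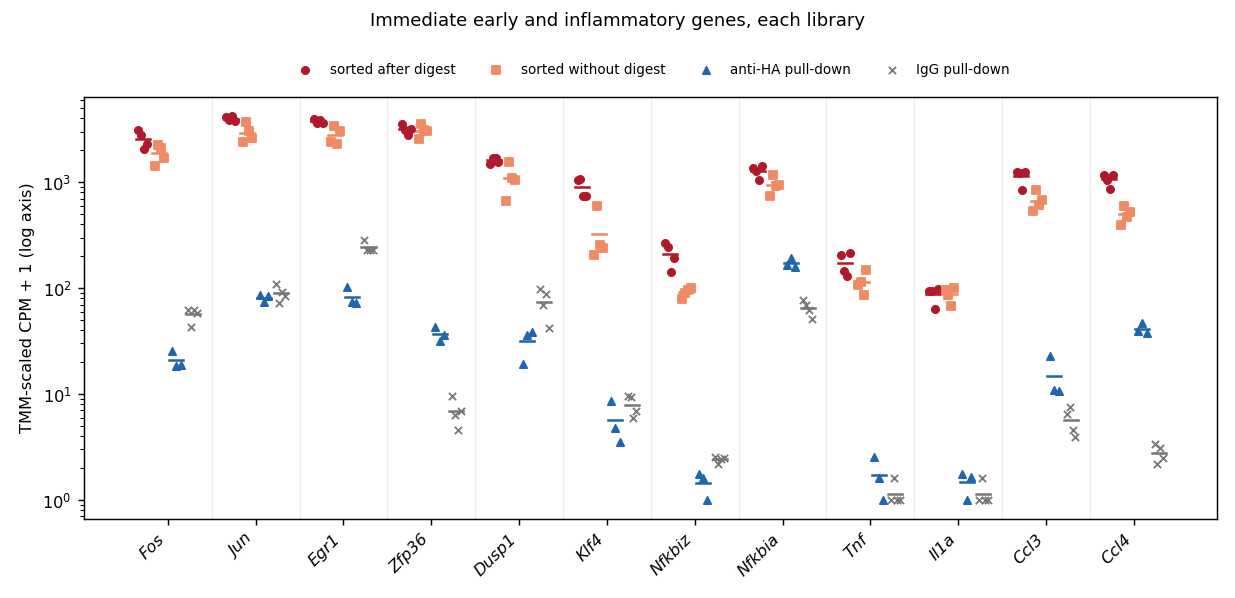
CPM + 1 on a log axis (y) for 12 immediate early and inflammatory genes (x), 1 point per library with a bar at the group mean, for cells sorted after digest and without digest, anti-HA pull-down and IgG pull-down. Both sorted groups sit above every pull-down library for each of the 12 genes, as with Fos at 2070 to 3090 CPM after digest and 17.4 to 24.3 CPM in the pull-down.

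The promoters of 5 genes that were higher in the sorted cells are shown. RefSeq promoter windows of 300 bases, 250 before to 50 after the start in build GRCm38.p6, were at hand for 8934 of the 11529 tested genes. The counts themselves were made on mm9, so the windows serve for sequence only. In Fos and Dusp1, capitals mark each match to TGACG on either strand, the core of the cyclic AMP response element, and matches that overlap run together. In Zfp36, capitals mark a CArG box, the site type of serum response factor. In Nfkbia and Rel, which belong to the NF-κB system described next, capitals mark a kappa B motif on either strand, read here as GGG, any 2 bases and TTTCC. The windows are chr12:85473640-85473939 (+ strand) for Fos, chr17:26508423-26508722 (- strand) for Dusp1, chr7:28379179-28379478 (- strand) for Zfp36, chr12:55492598-55492897 (- strand) for Nfkbia and chr11:23770920-23771219 (- strand) for Rel.
Fos: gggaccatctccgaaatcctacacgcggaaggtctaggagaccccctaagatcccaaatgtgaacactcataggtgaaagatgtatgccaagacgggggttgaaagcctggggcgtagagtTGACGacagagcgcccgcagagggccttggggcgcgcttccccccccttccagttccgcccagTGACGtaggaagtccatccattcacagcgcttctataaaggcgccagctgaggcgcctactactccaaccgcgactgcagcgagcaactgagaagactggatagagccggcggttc
Dusp1: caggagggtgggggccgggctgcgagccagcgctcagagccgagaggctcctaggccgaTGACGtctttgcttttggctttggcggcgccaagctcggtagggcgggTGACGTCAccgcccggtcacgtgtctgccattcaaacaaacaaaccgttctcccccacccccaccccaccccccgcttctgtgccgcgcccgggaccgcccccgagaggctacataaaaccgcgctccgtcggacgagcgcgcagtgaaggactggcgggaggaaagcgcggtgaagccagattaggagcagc
Zfp36: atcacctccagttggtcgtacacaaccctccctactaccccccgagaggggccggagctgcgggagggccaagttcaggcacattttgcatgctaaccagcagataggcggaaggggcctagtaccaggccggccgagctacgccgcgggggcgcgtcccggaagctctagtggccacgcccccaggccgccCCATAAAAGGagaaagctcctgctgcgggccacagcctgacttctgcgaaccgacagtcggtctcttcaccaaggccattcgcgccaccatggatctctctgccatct
Nfkbia: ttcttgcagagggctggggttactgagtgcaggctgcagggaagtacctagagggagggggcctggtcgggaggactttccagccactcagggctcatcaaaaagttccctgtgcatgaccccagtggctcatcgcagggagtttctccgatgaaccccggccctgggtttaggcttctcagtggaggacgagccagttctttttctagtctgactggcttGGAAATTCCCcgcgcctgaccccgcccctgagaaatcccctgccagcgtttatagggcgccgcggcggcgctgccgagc
Rel: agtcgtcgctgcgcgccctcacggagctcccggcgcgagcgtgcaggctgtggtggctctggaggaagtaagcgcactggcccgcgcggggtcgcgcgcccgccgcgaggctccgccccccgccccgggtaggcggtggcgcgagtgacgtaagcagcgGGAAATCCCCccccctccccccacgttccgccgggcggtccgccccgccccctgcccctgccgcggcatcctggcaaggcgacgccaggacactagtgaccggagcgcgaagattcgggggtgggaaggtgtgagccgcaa
TGACG lay in the windows of 15 of 21 AP-1, EGR, NR4A and IER genes with an entry (71.4%), against 36.3% of all 8934 promoters. These 15 were not all higher in sorted cells, since Egr4, Npas4, Nr4a2 and Nr4a3 were called lower and Srf and Batf were not called. The share was 70% for KLF, ID and C/EBP genes and 60% for mRNA decay genes. It was 36.4% for the MAP kinase phosphatases, 41.7% for NF-κB genes, 33.3% for cytokine genes and 14.3% for chemokine genes. Its palindrome TGACGTCA, which contains TGACG on both strands, was in 3.72% of all promoters and in those of Dusp1, Dusp8, Btg2 and Nfkbid among these lists. A CArG box was in 1.59% of all promoters, and in Zfp36, Egr2 and Srf here. Matches are a description of these windows and not of bound factors.

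NF-κB dimers are held in the cytoplasm by inhibitors of the IκB family, several of which are themselves induced by the pathway. Of 15 tested genes of this system, 9 were higher and none lower, with a median of 0.54. The IκB family genes Nfkbiz and Nfkbid had the 2 largest differences. Nfkbiz (IκBζ), needed for a second wave of cytokine genes, was at 267, 242, 140 and 190 CPM in sorted cells and 0.758, 0.622 and 0 CPM in the pull-down. That is 968 reads against 2, a ratio of 471 with a counting interval of 130 to 3900. Nfkbid differed by 7.16 ± 0.33, and Nfkbia (IκBα) by 2.90 ± 0.16 with 1350, 1280, 1060 and 1440 CPM against 166, 191 and 158 CPM. Nfkbiz and Nfkbid were not called between the anti-HA and IgG pull-downs (-1.45 ± 0.95 and -0.64 ± 0.77), where 11 of the 15 genes were higher and none lower.

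The subunits did not move as a block. Rel was higher by 4.6 ± 0.62, while Rela, Relb, Nfkb1 and Nfkb2 were not called, at -0.07, -0.21, 0.23 and 0.31. With libraries scaled by their totals Nfkb1 and Nfkb2 were called, at 0.40 and 0.48. The feedback inhibitor Tnfaip3 (A20) was higher by 2.28. The kappa B motif lay in the promoters of 4 of 12 NF-κB genes with an entry, Nfkb2, Nfkbia, Rel and Tnfaip3 (33.3%), against 1.97% of all promoters. Of these 4, Nfkb2 was not called.

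Of 18 listed cytokine and inflammasome genes, 10 passed the count filter, and all 10 were higher in sorted cells, with a median of 3.30. Il6 had 63 reads after the digest and 0 in the pull-down and in IgG. Il6 thus passed the filter through sorted libraries and could only be higher. The same holds for Tnf, Il1a and Casp1, with 3, 2 and 5 reads in the pull-down and 1 each in IgG. The count of 10 and the median are therefore partly set by the filter. Tnf was at 206, 144, 130 and 213 CPM in sorted cells and 1.52, 0.622 and 0 CPM in the pull-down. In reads, 778 stood against 3, a ratio of 253 with a counting interval of 86.1 to 1230. Il1a, the alpha form of interleukin 1, had 399 reads against 2 (ratio 194, interval 53.4 to 1610). Il1b, the beta form, differed far less, at 6.94 to 23.6 CPM against 4.35 to 6.82 CPM, without overlap (1.58 ± 0.37, adjusted p = 0.000229). Casp1, the inflammasome protease, was higher by 4.70 ± 0.42 and Il18 by 2.21 ± 0.19. Between the anti-HA and IgG pull-downs, 4 of the 10 were higher and none lower, and Tnf and Il1a were not called.

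Chemokines followed in 7 of 13 cases, with Ccl5 as the 1 lower gene. Ccl3 was at 1240, 1220, 851 and 1240 CPM against 22, 9.95 and 9.57 CPM, with no overlap (6.39 ± 0.24). Ccl4, a close relative of Ccl3, was at 1180, 1050, 859 and 1160 CPM against 38.7, 45.4 and 36.4 CPM (4.72 ± 0.18). Ccl2 and the atypical receptor gene Ccrl2 were higher by 5.20 and 3.84. All 13 chemokine list genes were higher in the anti-HA than in the IgG pull-down, so the lower pull-down level was still above that control.

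Receptors that sense microbial products were also read at higher levels in sorted cells. Of 15 genes for Toll-like receptors and their adaptors, 11 were higher and 1 (Myd88, at -0.41, or -0.24 and not called with libraries scaled by their totals) lower, with a median of 1.35. Tlr7, which senses single-stranded RNA in endosomes, was at 233, 286, 242 and 226 CPM against 6.82, 3.11 and 2.55 CPM (5.91 ± 0.24). Tlr3 had 226 reads against 3 (ratio 73.3, interval 24.8 to 358). Tlr4, the LPS receptor, was higher by 3.52 ± 0.25, and its co-receptor Cd14 by 1.39 ± 0.18. Between the anti-HA and IgG pull-downs, 11 of the 15 were higher and none lower. Tlr7 and Tlr3 were not called in that contrast (0.98 ± 0.51 and -1.58 ± 0.79).

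Of 22 interferon-stimulated genes, 13 were called higher and 3 lower, around a median of 1.04. Trim30a and Ifit1 were higher by 5.52 and 4.1, whereas the small membrane protein genes Bst2 and Ifitm3 and the ubiquitin-like Isg15 were lower, by -1.81, -0.79 and -0.98. Bst2 stood at 218 to 298 CPM in sorted cells and at 900, 901 and 876 CPM in the pull-down. In anti-HA against IgG, 16 of the 22 were higher and 2 lower. Trim30a was not called there (0.03), and Ifit1 was lower by -1.81 ± 0.71. Among TGF-β pathway genes 12 of 16 were higher and 2 lower, led by Tgif1 (3.08 ± 0.25) and Skil (2.41 ± 0.18), both repressors of SMAD-driven transcription.

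Heat shock genes divided by member, 10 higher and 6 lower of 18. The inducible Hsp70 genes Hspa1a and Hspa1b were higher by 5.90 ± 0.49 and 6.09 ± 0.68. Their coding sequences are near-identical, so the split of reads between them is uncertain. Hspa5, the chaperone of the endoplasmic reticulum, was higher by 3.04 ± 0.17. The mitochondrial chaperones Hspd1, Hspe1 and Hspa9 were lower by -0.98, -1.09 and -1.03. Only 1 of the 18 heat shock genes was higher and 10 were lower in anti-HA than in IgG. Hspa5 was not called in that contrast (0.07), and Hspa1a averaged 9.21 CPM in the pull-down and 23.4 CPM in IgG.

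Several RNAs that are known to stay in the nucleus were at low levels in the pull-down. Of 9 nuclear long noncoding RNAs tested, 6 were higher and 2 lower. Their median was 5.67, and it was 5.41 when genes at 0 reads took their bound. Malat1, an RNA of nuclear speckles, was at 1290, 1390, 1060 and 1120 CPM in sorted cells and 13.6, 6.22 and 4.47 CPM in the pull-down. No sorted library came near a pull-down library (7.26 ± 0.36). Neat1, the scaffold of paraspeckles, was at 251, 230, 167 and 236 CPM against 5.31, 3.73 and 3.83 CPM (5.67 ± 0.25). Malat1 and Neat1 differed by -3.89 and -3.85 between the anti-HA and IgG pull-downs, with IgG means of 118 and 63.7 CPM. The 2 lower RNAs, Meg3 and Snhg11, are abundant in neurons, and Meg3 was at 126 to 226 CPM in IgG.

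Regulators of splicing were mostly higher too. Among SR proteins, hnRNPs and CLK kinases, 20 of 33 were higher and 10 lower, with a median of 0.72. Clk1, a kinase of SR proteins, was at 352, 339, 324 and 367 CPM against 9.86, 13.7 and 4.47 CPM (5.19 ± 0.21). Clk4, Srsf7, Srsf5 and Hnrnpa2b1 were higher by 4.42, 3.68, 2.80 and 2.35, while Hnrnpab and Hnrnpl were lower by -1.60 and -1.11. In anti-HA against IgG, 10 of the 33 were higher and 5 lower, and Clk1 and Srsf7 were not called (-0.27 and -0.40).

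Of 68 listed histone genes of the replication-dependent type, whose mRNAs mostly lack a poly(A) tail, 14 passed the count filter. Of these 14, 11 were higher in sorted cells and 1 (Hist3h2ba) lower. Hist1h1d and Hist1h1e passed the filter through sorted libraries only. Hist1h1e, a linker histone, had 118 reads in sorted cells and 1 in the pull-down (ratio 115, interval 20.2 to 4580). Reads of closely related histone copies can be assigned to the wrong member. Between the anti-HA and IgG pull-downs 1 of the 14 was called higher and 3 lower.

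**Figure D3:**
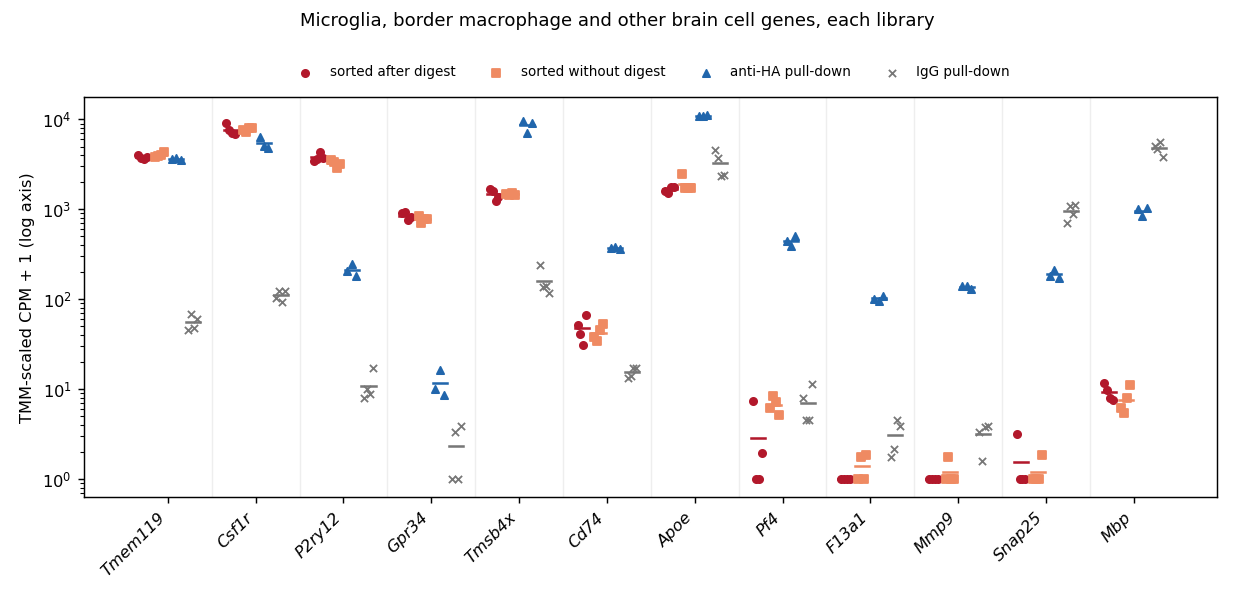
CPM + 1 on a log axis (y) for 12 genes of microglia, border macrophages, neurons and oligodendrocytes (x), 1 point per library with a bar at the group mean in the 4 groups. Tmem119 is level between sorted cells and anti-HA pull-down, Gpr34 is at most 15.6 CPM in the pull-down and at least 765 CPM in cells sorted after digest, and F13a1 and Mmp9 are at 0 in those cells.

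Border macrophage genes differed in the other direction. Of 15 tested, 14 were lower in sorted cells and none higher, with a median of -6.22 (-6.21 with genes at 0 reads at their bound). Without Stab1, the 17 listed genes summed to 18.2 to 36.4 CPM in sorted cells, 1240 to 1270 CPM in the pull-down and 26.5 to 35.4 CPM in IgG. F13a1, the coagulation factor XIII A chain of tissue macrophages, was at 100, 94.5 and 109 CPM in the pull-down and had no read in sorted cells, at least 156-fold lower. Pf4, a chemokine of these cells, was at 441, 388 and 510 CPM against 6.43, 0, 0 and 0.953 CPM, with no overlap (-8.10 ± 0.33). The scavenger receptors Cd163 and Mrc1 and the hyaluronan receptor Lyve1 were lower by -6.35, -3.40 and -6.51. F13a1, Cd163, Mrc1 and Lyve1 were at most 5.91 CPM in every library outside the anti-HA pull-down. These genes passed the filter through pull-down libraries and could only be lower in sorted cells. The count of 14 and the median are therefore partly set by the filter.

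Stab1, a scavenger receptor on the same list, was level at 248 to 313 CPM in sorted cells and 269 to 304 CPM in the pull-down (-0.01 ± 0.14). All 15 tested genes of the list were higher in anti-HA than in IgG.

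Mmp9, a gelatinase that also stands on the list of neutrophil and monocyte genes, was also confined to the pull-down among these 2 groups. It had 138, 139 and 128 CPM in the pull-down, 606 reads in all, and none in the sorted cells, at least 207-fold lower. The IgG mean was 2.18 CPM. Only 2 of the 21 neutrophil and monocyte genes passed the count filter, and the other, Csf3r, was higher in sorted cells by 1.21 ± 0.14. The whole list summed to 684 CPM in sorted replicate 1, 354 to 412 CPM in the other sorted replicates and 292 to 318 CPM in the pull-down. Csf3r was at 415 CPM in sorted replicate 1, so genes that failed the filter held part of that sum. Without the digest, replicate 4 summed to 875 CPM against 421 to 449 CPM in the others. Mmp2, another gelatinase, was at 155, 121 and 112 CPM in the pull-down and 37.5 to 58.2 CPM in sorted cells (-1.44 ± 0.18).

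Genes of MHC class II presentation were lower as well, within a list of antigen presentation genes that held 3 higher and 8 lower of 17. Cd74, the invariant chain, was at 371, 379 and 366 CPM in the pull-down and 50.4, 39.9, 30.4 and 66.7 CPM in sorted cells, with no overlap (-3.0 ± 0.17). H2-Aa and H2-Eb1 were lower by -4.91 ± 0.45 and -4.29 ± 0.31. For H2-Aa, 3 sorted libraries had 11.3 to 12.9 CPM and sorted replicate 4 had 61 CPM. The border macrophage genes listed above moved in the same direction in the same libraries, and their part in the class II difference was not tested. B2m, the class I light chain, and Cd86, a co-stimulatory ligand, were higher in sorted cells by 1.67 ± 0.15 and 3.61 ± 0.24.

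Neuronal genes were lower in all 28 cases, with a median of -7.53 (-7.17 at the bound). Their summed level was 47.7 to 77.7 CPM in sorted cells, 5280 to 5520 CPM in the anti-HA pull-down and 20900 to 26100 CPM in IgG. Snap25, a vesicle fusion protein, was at 180, 213 and 172 CPM in the pull-down and had 2 reads in the sorted cells. All 28 were lower in the anti-HA pull-down than in IgG, with a median of -2.33, so the anti-HA level of these genes was below that of the control pull-down. Dbn1, an actin-binding protein of dendritic spines, varied within the pull-down, at 78.1, 79.6 and 435 CPM.

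Most lists of other brain cells were also lower in sorted cells, but the ependymal and choroid list was not. Astrocyte genes were lower in 14 of 16 cases, oligodendrocyte genes in 15 of 16 and oligodendrocyte precursor genes in 9 of 10. Of 15 listed pericyte or fibroblast genes 5 passed the count filter, and all 5 were lower. Mbp, of the myelin sheath, was at 1010, 841 and 1030 CPM in the pull-down, 6.67 to 10.7 CPM in sorted cells and 4810 CPM on average in IgG. The oligodendrocyte list as a whole still summed to 1060 to 1190 CPM in sorted cells, against 3780 to 4010 CPM in the pull-down. For the astrocyte list the sums were 913 to 1100 CPM and 1620 to 1640 CPM. The 2 higher genes of the astrocyte list, Glul and Slc1a3, a glutamine synthetase and a glutamate transporter, were at 668 to 879 CPM and 151 to 244 CPM in sorted cells (1.39 ± 0.14 and 0.63 ± 0.16). Of 19 listed endothelial genes 7 passed the count filter, and 5 of these were lower and none higher. Of the 7, 3 were higher and 4 lower in anti-HA than in IgG. Of 6 ependymal and choroid genes 1 (Enpp2) was higher and 1 (Foxj1) lower, with a median of 0.68. That list summed to 958 to 1180 CPM in sorted cells, 652 to 959 CPM in the pull-down and 1320 to 2520 CPM in IgG. Enpp2, a secreted phospholipase, was at 69.4 to 96.5 CPM in sorted cells against 8.93 to 19.7 CPM in the pull-down. It averaged 183 CPM in IgG. In the PBS mice described below, 3 of 5 tested genes of this list were lower and none higher, with a median of -2.03. Enpp2 was not called there (-0.91), so the exception was not seen in that experiment.

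Among genes that microglia express, some of the most abundant were lower in sorted cells. Apoe, the lipid carrier, was at 10800, 10900 and 11100 CPM in the pull-down, 1610, 1530, 1790 and 1760 CPM in sorted cells and 3290 CPM on average in IgG (-2.71 ± 0.19). Tmsb4x, which sequesters actin monomers, was at 9720, 7140 and 9180 CPM against 1670, 1620, 1230 and 1370 CPM, with 158 CPM in IgG (-2.56 ± 0.17). Of 20 actin cytoskeleton genes 11 were lower and 4 higher, with Arpc3 and Cotl1 at -1.67 and -1.37 and Lcp1 and Wasf2 at 1.88 and 3.36. Tspo, a mitochondrial membrane protein, was lower by -1.59 ± 0.14.

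Lysosomal genes pointed both ways, 11 higher and 6 lower of 25. Lamp1 was at 3350, 3270 and 3070 CPM in the pull-down and 1020, 1070, 1240 and 1130 CPM in sorted cells (-1.54 ± 0.13). Lamp2, its paralogue in the lysosomal membrane, was at 8.34, 8.09 and 8.3 CPM in the pull-down and 167, 209, 122 and 149 CPM in sorted cells (4.29 ± 0.23). Npc2, which carries cholesterol out of the lysosome, was lower by -1.60 ± 0.12, and Ctsc, a dipeptidyl peptidase, higher by 1.73 ± 0.15. Of 18 genes of disease-associated microglia, 8 were lower and 4 higher, and Spp1 was lower by -2.49 ± 0.37.

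Genes for the energy and protein-making machinery were lower in sorted cells. Oxidative phosphorylation genes were lower in 66 of 74 cases and higher in 2, with a median of -1.51. Uqcrq and Ndufa2, subunits of complexes III and I, were at 134 to 168 CPM and 117 to 132 CPM in sorted cells and at 802 to 867 CPM and 582 to 668 CPM in the pull-down. In IgG they averaged 725 and 517 CPM. Of the 74 genes, 8 were called higher and 42 lower in anti-HA than in IgG. Ribosomal protein genes were lower in sorted cells in 43 of 63 cases and higher in 6, with a median of -0.87. Of these 63, 38 were higher and 8 lower in anti-HA than in IgG. Rpl4 was at 2520, 2660 and 2510 CPM in the pull-down and 915, 882, 846 and 869 CPM in sorted cells (-1.54 ± 0.12). Rpl39 was an exception at 4.64 ± 0.37, although processed pseudogenes make reads of this family uncertain.

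Mitochondrial ribosome genes were lower in 41 of 72 cases and higher in 10. Glycolytic genes were lower in 14 of 23, with Pkm at -1.73 ± 0.13, a gene that averaged 2820 CPM in IgG. Of the 23, 4 were higher and 16 lower in anti-HA than in IgG. In sorted cells against the pull-down, translation factors were nearer to the background split, at 17 higher and 24 lower of 62. So were proteasome subunits, at 12 higher and 16 lower of 34. Within them Eif3e and Psmc6 were higher by 4.49 and 4.54 while Eef1g and Psmb6 were lower by -1.85 and -1.78.

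The 4 libraries sorted after the digest were also set against the 4 sorted without it, in the same fit, and so share samples with the comparison above. Only 16 of 11529 genes were called (0.139%), 14 higher after the digest (0.121%) and 2 lower (0.0173%), and 521 had an unadjusted p under 0.05. The 14 were Adamts1, Atf3, Ccl3, Ccl4, Ccrl2, Gadd45b, Gem, Hist1h1d, Hist1h1e, Id2, Nfkbiz, Ppp1r15a, Rgs1 and Socs3, and the 2 were Ccl2 and Metrn.

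Nfkbiz was at 140 to 267 CPM after the digest and 77.6 to 99.6 CPM without it, and the 2 groups did not overlap, as for 410 of all tested genes (3.56%). The difference of Nfkbiz was 1.21 ± 0.15 (adjusted p = 2.83e-06). Ccl4 was at 859 to 1180 CPM after the digest and 397 to 593 CPM without (1.09 ± 0.13, adjusted p = 4.61e-07). Atf3, a stress-induced factor of the ATF/CREB family, was at 827 to 1210 CPM and 224 to 544 CPM (1.49 ± 0.19). Ppp1r15a, which reverses the phosphorylation of eIF2α, and Socs3, which dampens cytokine signalling, differed by 0.76 ± 0.15 and 0.96 ± 0.14. Ccl2 was lower after the digest, at 96.3 to 191 CPM against 246 to 364 CPM (-0.95 ± 0.16).

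Gadd45b, a growth arrest and stress gene, was at 82.4 to 156 CPM after the digest, 29.8 to 43.6 CPM without it and 33 to 42.1 CPM in the pull-down, so the undigested cells and the pull-down overlapped. Fos, Jun, Egr1, Zfp36 and Dusp1 were not called between the 2 sorted groups, at 0.45 ± 0.14, 0.44 ± 0.12, 0.43 ± 0.13, 0.05 ± 0.12 and 0.56 ± 0.24 (adjusted p from 0.307 to 1). Hspa1a was at 294 to 708 CPM and 111 to 264 CPM (1.52 ± 0.31) and was not called either (adjusted p = 0.152). No gene of the border macrophage, neuron, astrocyte or oligodendrocyte lists was called.

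**Figure D4:**
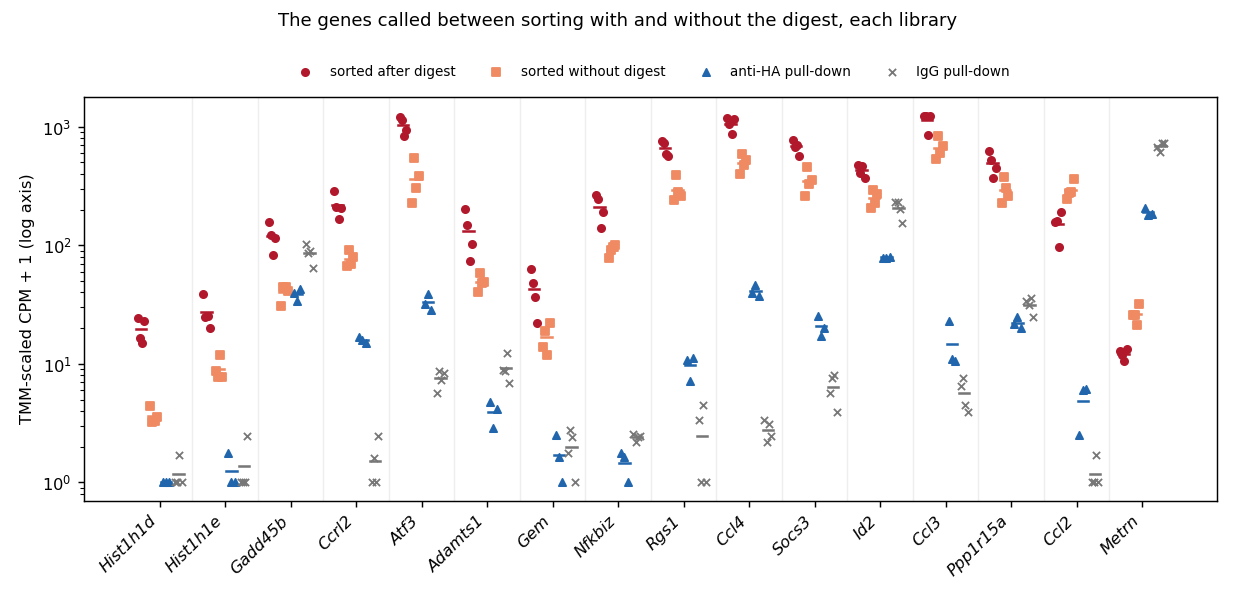
CPM + 1 on a log axis (y) for the 16 genes called between the 2 sorted groups (x, ordered from highest to lowest difference), 1 point per library with a bar at the group mean in the 4 groups. For Nfkbiz the digested cells are at 140 to 267 CPM, the undigested at 77.6 to 99.6 CPM and the anti-HA pull-down at 0.758 CPM or less.

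A second experiment of the series gave the same contrast in other libraries. There, mice of the same genotype and tamoxifen schedule had received PBS as the control of an LPS injection, and 3 libraries of sorted cells were set against 3 of the pull-down. The labels of that experiment do not say of each library whether the digest was used. Of the genes named above with the largest difference towards sorted cells, Xist, Zfp984 and Hist1h1d were not among those tested there. Xist was at 216 to 286 CPM in the cells sorted after the digest, and whether the mice of both experiments were alike in sex was not tested. That table was fitted and scaled on its own, with 8226 of 11444 genes called (71.9%), 3798 higher (33.2%) and 4428 lower (38.7%). Of 10930 genes tested in both, 3466 were called higher in the digest experiment, and 2990 of these were also called higher in PBS mice, 86.3% of the former and 82.7% of the latter calls. For lower genes the numbers were 3770 of 4542, 83% and 87.8%. Only 19 and 18 genes were called in opposite directions.

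The values are given here for the digest experiment first and PBS mice second. P2ry12 was at 4.17 and 4.04, Clk1 at 5.19 and 4.97, Lamp2 at 4.29 and 4.46, and Pf4 at -8.10 and -8.44. Among immediate early and inflammatory genes the values of the digest experiment were the larger for some, with Fos at 7.01 and 4.43, Junb at 3.63 and 1.19, Nfkbiz at 8.59 and 3.39, Tnf at 7.81 and 3.07 and Ccl4 at 4.72 and 1.39. They were the smaller for others, with Il18 at 2.21 and 2.97, Tnfaip3 at 2.28 and 2.53, Dusp6 at 2.35 and 2.53, Zfp36l2 at 3.53 and 3.89 and Tlr3 at 5.98 and 6.11. The median of the AP-1 list was 2.83 and 0.63, that of the cytokine list 3.30 and 2.50, that of the NF-κB list 0.54 and 0.51 and that of the mRNA decay list 3.17 and 3.13, over the members tested in each table. The difference between the experiments was not tested, since the tables were scaled separately. Nr4a1 and Gadd45b changed sign, from 1.09 ± 0.25 and 1.63 ± 0.19 in the digest experiment to -3.47 ± 0.42 and -2.21 ± 0.43 in PBS mice.

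**Figure D5:**
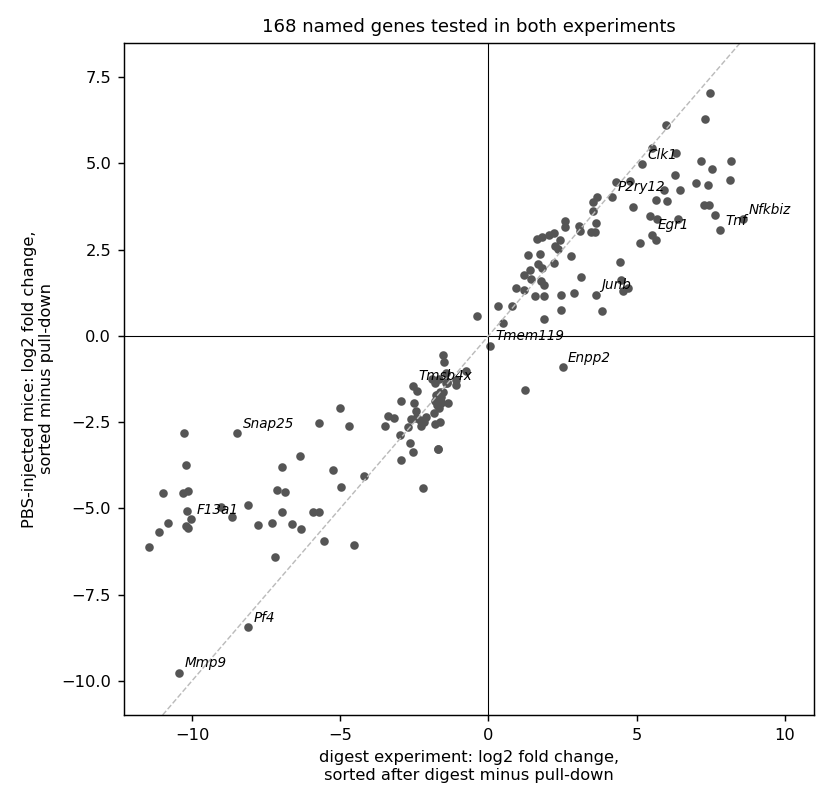
Log2 fold change of sorted cells minus pull-down in the digest experiment (x axis) and in PBS-injected mice (y axis) for the 168 named genes tested in both; 1 point per gene, dashed line at equal values. The sign is shared by 164 of 168 genes, and Snap25 lies nearer to 0 on the y axis, at -2.82, than on the x axis, at -8.47.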

How the data were processed

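RNA was sequenced from sorted cells and from anti-HA or IgG pull-downs. Bcl2fastq, HISAT 0.1.5, HOMER and build mm9 are named per the submitters' processing notes, with no roles. The deposited tables hold raw read counts over exons per gene, not normalised by the authors, per the file headers and values. The strand setting is not given in the sources used here. From these counts edgeR 4.0.16 (R 4.3.3) computed TMM scaling, a filter (filterByExpr, minimum count of 10), a robust quasi-likelihood fit over all 15 libraries of the table and Benjamini-Hochberg adjusted p-values, called under 0.05. The experiment with PBS-injected mice was fitted alone on its own table. The test was tried on simulated counts for the comparison of sorted cells after digest with the pull-down (10921 genes). It recovered 66.7% of 90 genes changed 2-fold and 93.8% of 96 changed 4-fold, with 11 false calls. All other genes had the same mean in every group, and changes went both ways equally. In the data 72.8% of genes were called, so these rates need not hold there.

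Genes with the 12 largest differences in each direction (at least 10 CPM in the higher group, no overlap) and up to 3 per gene list were named by rule, and further list members were named after their values were seen. Members and lists were chosen with earlier results of these data known. A fold against a group with 0 reads used a floor of 3 reads over that group, and ratios from 1 to 3 reads carry exact binomial 95% intervals. Both cover counting error only, because PCR copies cannot be told from separate molecules. Alternatives were DESeq2 1.42.0 (size factors and Wald test), scaling by totals, other count filters, a replicate block, only the groups compared and leaving out each replicate. The PBS table was filtered, scaled and fitted over all its libraries. Those of the other groups thus also set the genes tested, the scaling and the spread. With only the groups compared, 10075 genes were tested there and the median of all genes moved by 0.1.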

Additional observations from a re-analysis of the deposited data

Results flagged for a closer look

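Each gene named in the text was checked for a library that stood far from the other 3 of its group by Dixon's criterion, in the groups of 4 libraries and where the group held at least 10 reads. Of 442 checks, 24 (5.43%) met it, and chance gives about 1 in 20. In cells sorted after the digest, replicate 4 was the high one for H2-Aa (61 CPM against 11.3 to 12.9) and Eef1g (159 against 122 to 128). Replicate 3 was low for Il1a (62.5 against 93.2 to 96.3), Ccl3 (851 against 1220 to 1240) and Clk4 (32.1 against 48.2 to 50), and high for Zfp36l2 (210 against 132 to 144).

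In cells sorted without the digest, replicate 1 was high for Apoe (2450 CPM against 1710 to 1730) and Runx1 (275 against 233 to 234) and low for Irf5 (384 against 418 to 420) and Hspa5 (523 against 603 to 617). Replicate 2 was high for Klf4 (590 against 205 to 254) and low for Tlr7 (217 against 235 to 236), and replicate 4 was high for Cotl1 (673 against 584 to 595).

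In the IgG pull-down, replicate 1 was low for Malat1 (56.1 CPM against 132 to 146), Sall1 (6.24 against 12.5 to 13.3) and Glul (355 against 454 to 474), and high for Egr1 (284 against 226 to 230) and Jund (99 against 67.9 to 71.4). Replicate 3 was high for Dbn1 (2770 against 1080 to 1310) and Cd14 (13.4 against 4.17 to 5.46). Replicate 4 was high for Hspa5 (124 against 65.1 to 73.9), Csf3r (7.38 against 2.34 to 2.98) and Dusp6 (16.2 against 12.7 to 13.3) and low for Rpl22 (81.1 against 105 to 106).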

How the results depend on the processing

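Between cells sorted after the digest and the pull-down, 8391 genes were called. The number was 8031 to 8215 when any 1 replicate was left out and 8392 with the replicate block, and no called gene changed sign in any alternative. The share of called genes that were higher went from 43.5% to 49.5% with scaling by library totals and to 48.4% when only the groups compared were fitted. Between the 2 sorted groups, where 16 genes were called, 25 were called by DESeq2's Wald test, 25 with no filter on low counts and 30 when only the groups compared were fitted. Leaving out 1 replicate gave 13 to 23, and the replicate block gave 24. Between the anti-HA and IgG pull-downs 8594 genes were called, 8048 to 8474 with a replicate left out. In that contrast, fitting only the groups compared raised the share of called genes that were higher from 35.8% to 48.1%, moved the median of all genes by 0.38 and reversed the sign of 116 called genes. In PBS mice 8226 genes were called, 7611 to 7985 with a replicate left out, and without the filter 62 of the called genes reversed and the share higher went from 46.2% to 32.2%. The causes were not tested. Scaling by library totals moved the median of all genes by 0.17 in the digest experiment and 0.21 in PBS mice, so differences of that size depend on the scaling. Itgam was not called then (-0.22), nor was Dbn1 when only the groups compared were fitted (-11.01). Same-numbered libraries of the sorted cells and the pull-down showed no shared deviation, with correlations of 0.048, 0.008 and -0.001. Libraries with different numbers ran from -0.096 to 0.091. Whether the numbers mark the same animals cannot be told from this, since noise of each library could hide a shared part.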

Other observations

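Gene classes that the lists did not cover also differed between cells sorted after the digest and the pull-down. These classes were chosen after their values were seen. Of 261 zinc finger genes with a Zfp symbol, 171 (65.5%) were higher and 34 (13%) lower in sorted cells, with a median of 1.19, against 31.6% and 41.1% of all tested genes. In PBS mice 155 of 245 (63.3%) were higher and 39 (15.9%) lower. Many genes of this family are close copies of each other, so the assignment of reads within it is uncertain. All 5 tested snoRNA genes were higher in sorted cells, with a median of 6.56. Of 228 noncoding RNA genes 41.2% were higher and 32.0% lower.

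Ap2b1, a subunit of the clathrin adaptor AP-2 and also chosen after its values were seen, was at 5080, 4810 and 4660 CPM in the pull-down and at 43.9, 60.8, 46 and 58.2 CPM in sorted cells. Every pull-down library lay above every sorted library, and the difference was -6.52 ± 0.15, against -5.20 in PBS mice. In IgG it was at 319 to 378 CPM.

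Genes were also cut into 10 bins of equal size by genomic length (RefSeq, GRCm38.p6), which was at hand for 97.0% of tested genes. The shortest bin, up to 4363 bases, had a median log2 fold change of -0.58, and the longest bin, from 129498 bases, had a median of -0.98. The bin from 32359 to 46770 bases had a median of 0.16. In PBS mice the shortest and longest bins had medians of -0.69 and -0.95.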
